A study of Mus musculus with 12 samples.

Results

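The genes described here are 6 stromal and bone-lineage signals for blood cells in the marrow: Cxcl12, Kitl, Angpt1, Vcam1, Il7 and Lepr. They were taken by gene symbol from a count table of 23358 genes, and all 6 were among the 16190 genes with enough counts to test. They were measured by mRNA sequencing in the skull of mouse pups at postnatal day 3. The tissue was frontal bone, kept joined to the nasal bone and the frontonasal and coronal sutures, digested with collagenase and trypsin before RNA extraction. There were 12 samples in 4 groups of 3: C57BL/6 wild type (replicates 1 to 3), C57BL/6 FGFR2C342Y/+ (replicates 4 to 6), BALB/c wild type (replicates 13 to 15) and BALB/c FGFR2C342Y/+ (replicates 16 to 18). FGFR2C342Y/+ is 1 mutant copy of the receptor gene Fgfr2 and models Crouzon syndrome, a disorder of premature suture closure, and these samples are called mutant here. All groups share age and tissue and differ in strain, in genotype or in both. The labels do not say whether a sample is 1 animal or a pool, so p-values measure the spread between these samples.

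Blood-forming cells in bone are held and fed by the stroma around them. Reticular and perivascular stromal cells, marked in adult marrow by the leptin receptor Lepr, secrete the chemokine Cxcl12, which retains blood stem cells and B cell precursors through its receptor Cxcr4. Kitl (stem cell factor) supports stem cells, red cell precursors and mast cells through Kit, and Angpt1 (angiopoietin 1) signals to the receptor Tek on endothelium and stem cells. Vcam1 is an adhesion molecule bound by integrins that contain Itga4, and Il7 is the cytokine that B cell precursors need in the mouse.

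The table gave 1 place for each gene, and the submitters' processing notes name the build mm10: Cxcl12 on chromosome 6 from 117168535 to 117181368, Kitl on chromosome 10 from 100015824 to 100100412, Angpt1 on chromosome 15 from 42424725 to 42676795, Vcam1 on chromosome 3 from 116110020 to 116129688, Il7 on chromosome 3 from 7572077 to 7613427, and Lepr on chromosome 4 from 101717407 to 101815354. In the GENCODE annotation an antisense gene overlaps Angpt1 (Gm17473), Il7 (Gm16685) and Vcam1 (Gm43109). The strand setting of the counting is not given in the sources used here, so reads of these pairs cannot be told apart. The count table itself lists no gene that overlaps a member.

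RefSeq promoter sequence (GRCm38.p6) is shown for Kitl and Lepr only, and Lepr has 2 starts in the table. Each stretch below holds the 30 bases from 40 to 11 bases before the first transcribed base, on the plus strand, where a TATA box would stand. Kitl is shown as the member with the largest difference between the strains, chosen with its values known, and Lepr beside it. Capitals mark TATAAA.
Kitl, chr10:100015781-100015810: ggcgggagggagctgTATAAAaagcgctgg
Lepr first start, chr4:101717367-101717396: cgcgcagcgtccccgccgcgcagtcacctg
Lepr second start, chr4:101717866-101717895: gcactcctttaaaaggatttgcagcggtga
In windows from 250 bases before to 50 bases after each start, TATAAA on the gene's strand occurred in 8.32% of all 32851 RefSeq promoters and, of these 2 genes, only in Kitl, from 25 to 20 bases before the start at 100015821. The RefSeq span of Kitl begins farther upstream, at 100015615, so the match lies inside its longer gene models. The windows of these 2 genes held none of the other motifs searched on both strands, each a description of letters and not of binding. These were the EBF motif (in 0.904% of all promoters), the NF-kB motif (5.02%), the RUNX motif TGTGGT (16.8%), the forkhead motif TGTTTA (13.4%) and the hypoxia response core ACGTG (19.6%). Over the 250 bases before the start, GC content was 69.2% for Kitl and 58.4% and 54.8% for the starts of Lepr, beside a median of 52.4% over all promoters.

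Total gene counts per sample ran from 27181658 to 46521546. Osteoblast markers were present in every sample: 10 of them summed to between 108509 and 250713 CPM (counts scaled to library size), of which the type I collagen genes Col1a1 and Col1a2, also made by fibroblasts, gave 97.01% to 97.7%. The other 8, among them Bglap, Ibsp and Sp7, summed to 3248 to 6306 CPM. The libraries differed in other tissue. Markers of nasal epithelium summed to 416 to 828 CPM in C57BL/6 wild type, to 207, 5.53 and 7.71 CPM in C57BL/6 mutant replicates 4, 5 and 6, and to at most 5.71 CPM in BALB/c, and cartilage markers to 4921 to 7058 CPM in C57BL/6 wild type and 246 to 4771 CPM elsewhere. BALB/c mutant replicate 16 stood apart in skeletal muscle markers (398 CPM, against 1.41 to 70.9 CPM in the other 11 samples) and in markers of mural cells, the pericytes and smooth muscle of vessels (433 CPM, against 240 to 366 CPM). Y-linked genes had 5164 to 6018 counts in all 3 C57BL/6 wild type samples and 6876, 5530 and 4846 counts in 1 sample of 3 in each other group (replicates 6, 15 and 16), against at most 60 counts in the remaining 6 samples. Fgfr2 itself, counted with both alleles together, was 0.54 higher on the log2 scale in C57BL/6 mutants (adjusted p = 0.00405, edgeR) and did not pass the test in BALB/c (0.09, adjusted p = 0.800, edgeR). C57BL/6 and BALB/c libraries carry different run identifiers, and reads were mapped to mm10, a C57BL/6J sequence, so strain, sequencing run and fit to the reference cannot be told apart.

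All 6 genes were detected in all 12 samples. Set against gene length, Cxcl12 and Vcam1 stood highest, Angpt1, Lepr and Kitl formed a middle group, and Il7 was lowest. The level per kilobase of transcript had a median of 35.3 CPM for Cxcl12 (range 25.3 to 42.4 over the 12 samples) and 22.9 CPM for Vcam1 (18.4 to 27.3). Cxcl12 exceeded Vcam1 in 11 of 12 samples, the exception being C57BL/6 wild type replicate 3. The medians were 6.94 CPM per kilobase for Angpt1 (5.44 to 10.2), 6.52 for Lepr (5.69 to 7.40) and 5.29 for Kitl (3.49 to 8.06), and these 3 ranges overlapped. Il7 had a median of 0.372 CPM per kilobase (0.152 to 0.486), below every other member in every sample. The steadiest member was Lepr, whose highest sample was 1.30 times its lowest, while Kitl spanned 2.31-fold and Il7, at the lowest counts, 3.19-fold.

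**Figure D1:**
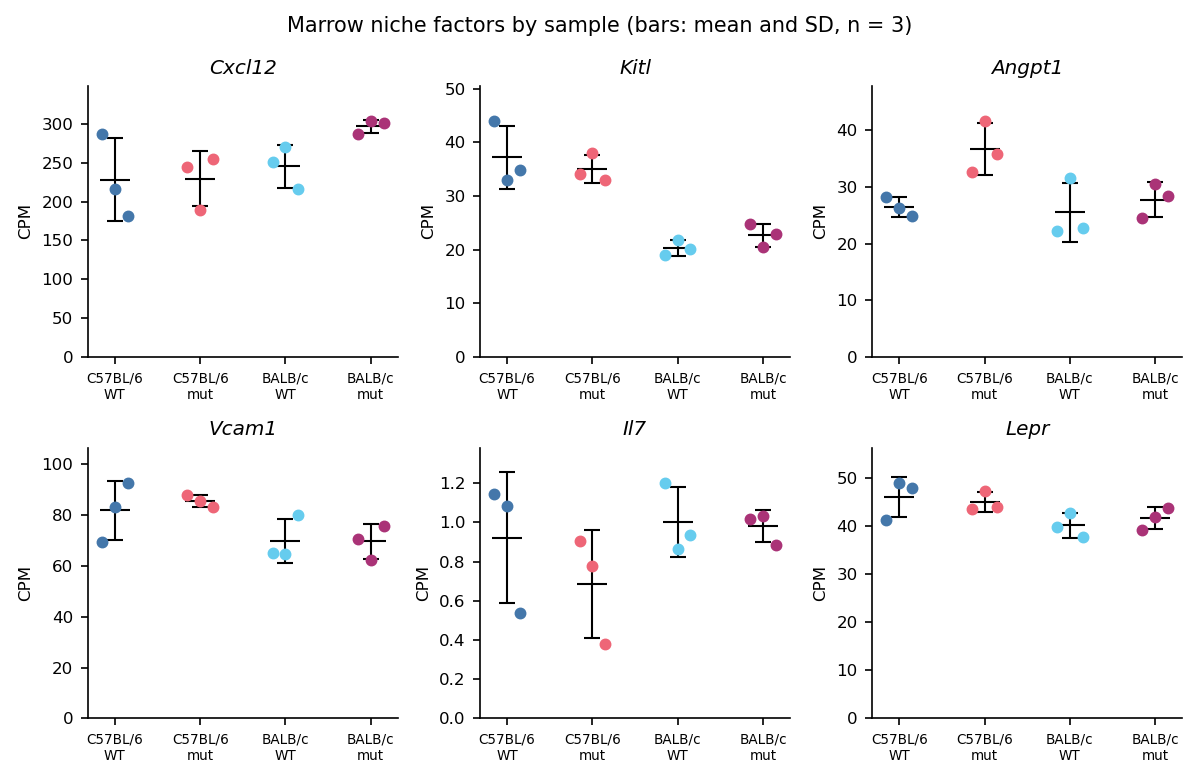
Level of each niche factor in CPM (vertical axes from 0, 1 panel per gene) in the 12 samples, with the mean and SD of each group of 3. Kitl lies between 32.9 and 43.9 CPM in all C57BL/6 samples and between 19.0 and 24.8 CPM in all BALB/c samples, and Angpt1 is highest in the 3 C57BL/6 mutant samples.

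Kitl differed between the strains and not detectably between the genotypes. Its level was 43.9, 32.9 and 34.8 CPM in C57BL/6 wild type and 34.1, 38.0 and 33.0 CPM in C57BL/6 mutant samples. It was 19.0, 21.8 and 20.03 CPM in BALB/c wild type and 24.8, 20.4 and 22.8 CPM in BALB/c mutant samples. The lowest of the 6 C57BL/6 samples was above the highest of the 6 BALB/c samples. Among wild type samples BALB/c was 0.545-fold the level of C57BL/6 (log2 difference -0.88, 95% interval -1.12 to -0.63, adjusted p = 9.9e-05, edgeR). Among mutants it was 0.647-fold (log2 difference -0.63, interval -0.87 to -0.39, adjusted p = 0.00094, edgeR). In the authors' deposited table, computed with C57BL/6 over BALB/c, Kitl stood at 0.79 in wild type (q-value 1.21e-08) and 0.56 in mutants (q-value 0.000115) on the log2 scale. In bulk tissue fewer cells of a type and less RNA per cell cannot be told apart.

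The Kitl strain calls held in all 8 alternative analyses and in all 6 fits that left out 1 sample, for both genotypes. The sums of adipocyte markers (44.9 to 61.6 CPM in C57BL/6 and 76.8 to 106 CPM in BALB/c), neutrophil markers (119 to 406 and 573 to 884 CPM) and B cell precursor markers (12.5 to 34.7 and 49.8 to 96.9 CPM) also separated all samples by strain, and nasal epithelium markers did so among wild types only. Summed markers of marrow stroma (10 regulators and surface genes) separated all samples too, with BALB/c lower as for Kitl (1117 to 1282 CPM in C57BL/6 and 1031 to 1098 CPM in BALB/c). The adipocyte sum was mostly Fabp4 (43.9 to 59.9 CPM in C57BL/6 and 76.1 to 99.2 CPM in BALB/c), which endothelium also makes, and Adipoq was at most 6.78 CPM. The part of these markers in the Kitl result was not tested. Between genotypes the Kitl difference was -0.09 in C57BL/6 (interval -0.32 to 0.15, adjusted p = 0.586, edgeR) and 0.16 in BALB/c (interval -0.08 to 0.40, adjusted p = 0.644, edgeR).

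Angpt1 was the member that differed by genotype, and only the C57BL/6 contrast passed the test. It was 28.2, 26.3 and 24.8 CPM in C57BL/6 wild type and 32.6, 41.6 and 35.8 CPM in C57BL/6 mutant samples. It was 22.2, 31.5 and 22.8 CPM in BALB/c wild type and 24.5, 30.4 and 28.3 CPM in BALB/c mutant samples. Each C57BL/6 mutant sample was above each C57BL/6 wild type sample, whereas the BALB/c groups overlapped. Angpt1 rose 1.39-fold in C57BL/6 mutants (log2 difference 0.47, interval 0.18 to 0.76, adjusted p = 0.0271, edgeR). In BALB/c the difference was 0.12 (interval -0.17 to 0.42, adjusted p = 0.793, edgeR). The difference between these effects, -0.35, did not pass (interval -0.77 to 0.07, adjusted p = 0.247, edgeR), so the data do not show that the strains respond differently in Angpt1.

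Angpt1 was also lower in BALB/c than in C57BL/6 among mutants (log2 difference -0.40, interval -0.69 to -0.11, adjusted p = 0.0354, edgeR), in a comparison that shares the C57BL/6 mutant samples with the previous one. Among wild types the strain difference was -0.05 (interval -0.35 to 0.24, adjusted p = 0.771, edgeR). The authors' deposited table gives Angpt1 0.45 for the genotype effect in C57BL/6 (q-value 0.00373) and 0.35 for C57BL/6 over BALB/c mutants (q-value 0.0212) on the log2 scale.

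The Angpt1 call in C57BL/6 rested on a narrow margin. It was lost without wild type replicate 2 (adjusted p = 0.0601, edgeR) or 3 (0.0752), or without mutant replicate 5 (0.107) or 6 (0.0694), and the direction held in each of these fits. It was also lost with Y-linked transcripts as a covariate (log2 0.35, adjusted p = 0.115, edgeR) and with total-count scaling (log2 0.27, adjusted p = 0.171, edgeR), a scaling that moved the median of all genes to -0.20 in this comparison. The strain call in mutants was lost with total-count scaling (adjusted p = 0.140, edgeR) and without C57BL/6 mutant replicate 5 (0.139) or 6 (0.0675) or BALB/c mutant replicate 16 (0.138) or 18 (0.0706).

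Markers of other cells moved with the Angpt1 difference. Between C57BL/6 wild type and mutant, the sum of the 8 osteoblast markers other than Col1a1 and Col1a2 went from 3248 to 4761 CPM to 5595 to 6306 CPM and the endothelial sum from 388 to 468 CPM to 498 to 652 CPM, while the mural cell sum went from 326 to 366 CPM to 258 to 279 CPM. Of the 7 endothelial markers Egfl7 (1.16, adjusted p = 0.0293) and Kdr (0.28, adjusted p = 0.0425) passed by edgeR, beside 11.3% of all genes higher. The Egfl7 call was lost without any 1 of the wild type replicates (0.0536 to 0.0956) and in a fit to these 2 groups alone (0.123). The Kdr call was lost without wild type replicate 1 (0.125) or 2 (0.0767), without mutant replicate 5 (0.167) or 6 (0.088), in a fit to these 2 groups alone (0.0911), with Y-linked transcripts as a covariate (0.156), with upper quartile scaling (0.0612) and with total-count scaling (0.428). Of the 6 mural markers only Tagln passed (-0.70, adjusted p = 0.0136, edgeR), beside 12.6% of all genes lower. The pericyte markers Abcc9 (0.23) and Kcnj8 (0.20) had the opposite sign without passing. The Tagln call was lost without mutant replicate 5 (0.0517) or 6 (0.0561) and with Y-linked transcripts as a covariate (0.0696). Megakaryocyte markers, from another cell that makes angiopoietin 1, went from 28.3 to 37.0 CPM to 15.3 to 19.2 CPM. The part of these shifts, and of the nasal and cartilage markers, in the Angpt1 result was not tested.

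Cxcl12, the chemokine of the set, was at similar levels in both C57BL/6 groups and highest in BALB/c mutants. It was 287, 217 and 181 CPM in C57BL/6 wild type, 245, 188 and 255 CPM in C57BL/6 mutant, 251, 270 and 216 CPM in BALB/c wild type and 288, 303 and 301 CPM in BALB/c mutant samples. The 3 BALB/c mutant samples were close together and above all other samples, although C57BL/6 wild type replicate 1 nearly reached them, and C57BL/6 wild type spread most widely. The genotype difference was 0.28 in BALB/c (interval -0.06 to 0.62, adjusted p = 0.542, edgeR) and 0.01 in C57BL/6 (interval -0.33 to 0.35, adjusted p = 0.975, edgeR). Between the strains it was 0.37 in mutants (interval 0.03 to 0.71, adjusted p = 0.0792, edgeR) and 0.10 in wild type (interval -0.23 to 0.44, adjusted p = 0.603, edgeR). The strain difference in mutants passed with DESeq2 (adjusted p = 0.0394) and in an edgeR fit to those 2 groups alone (adjusted p = 0.0268).

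Vcam1, the adhesion molecule, did not pass the test for genotype, and its lower level in BALB/c mutants stood at the edge of the threshold. It was 69.6, 83.3 and 92.7 CPM in C57BL/6 wild type, 88.1, 85.7 and 83.1 CPM in C57BL/6 mutant, 65.0, 64.8 and 80.0 CPM in BALB/c wild type and 70.6, 62.5 and 75.9 CPM in BALB/c mutant samples. Every BALB/c mutant sample lay below every C57BL/6 mutant sample, and the wild type groups overlapped. The strain difference was -0.30 in mutants (interval -0.54 to -0.06, adjusted p = 0.0513, edgeR) and -0.23 in wild type (interval -0.47 to 0.01, adjusted p = 0.110, edgeR). It passed in mutants in 4 of 8 alternative analyses, with the lowest adjusted p at 0.0194 in an edgeR fit to those groups alone. In wild type it passed with total-count scaling (adjusted p = 0.0191, edgeR) and without C57BL/6 wild type replicate 1 (0.0248) or BALB/c wild type replicate 15 (0.0358). The genotype difference was 0.07 in C57BL/6 (interval -0.17 to 0.30, adjusted p = 0.700, edgeR) and -0.01 in BALB/c (interval -0.25 to 0.23, adjusted p = 0.999, edgeR).

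Il7, the B lineage cytokine, was too scarce for a precise comparison. It was 1.14, 1.08 and 0.536 CPM in C57BL/6 wild type, 0.904, 0.776 and 0.377 CPM in C57BL/6 mutant, 1.20, 0.865 and 0.937 CPM in BALB/c wild type and 1.02, 1.03 and 0.886 CPM in BALB/c mutant samples, from 14 to 48 counts per sample. All groups overlapped, and the BALB/c mutants lay closest together. The genotype difference in C57BL/6 was -0.42 with an interval from -1.25 to 0.41 (adjusted p = 0.451, edgeR), and in BALB/c it was -0.03 with an interval from -0.85 to 0.80 (adjusted p = 0.995, edgeR).

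Lepr, the stromal receptor, varied least. It was 41.4, 49.1 and 47.9 CPM in C57BL/6 wild type, 43.6, 47.4 and 44.0 CPM in C57BL/6 mutant, 40.0, 42.9 and 37.8 CPM in BALB/c wild type and 39.3, 42.1 and 43.9 CPM in BALB/c mutant samples. The groups overlapped in each comparison of genotype and of strain. Between the wild type strains it fell by 0.20 on the log2 scale in BALB/c (interval -0.36 to -0.03, adjusted p = 0.0477, edgeR), a call lost with limma-voom (adjusted p = 0.0550), without the low-count filter (0.0778), with only those groups fitted (0.106) and without C57BL/6 wild type replicate 2 (0.169) or 3 (0.135) or BALB/c wild type replicate 13 (0.104) or 15 (0.171). The authors' deposited table gives Lepr a q-value of 0.209 there. The genotype difference was -0.04 in C57BL/6 (interval -0.20 to 0.13, adjusted p = 0.769, edgeR) and 0.05 in BALB/c (interval -0.11 to 0.22, adjusted p = 0.848, edgeR).

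**Figure D2:**
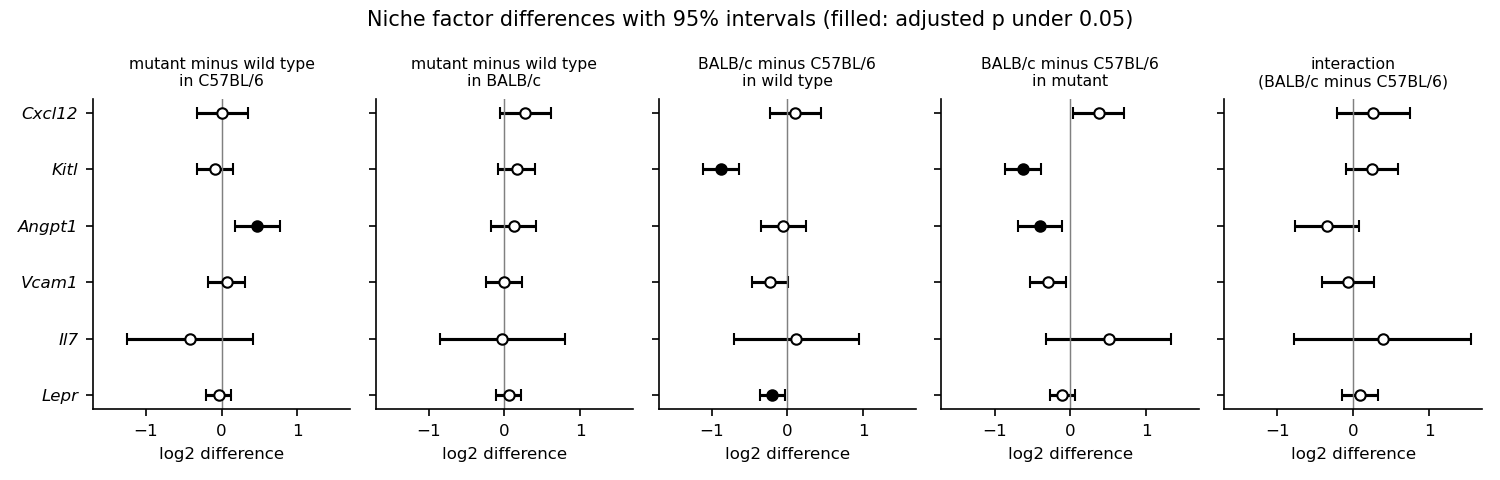
Log2 difference of each niche factor with its 95% interval in the comparisons of genotype and of strain (horizontal axis), filled where the adjusted p was under 0.05. The Kitl strain differences of -0.88 and -0.63 stand farthest from 0, and the Il7 intervals are the widest.

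Counted over the set, 1 of 6 members passed between C57BL/6 mutant and wild type samples (Angpt1, higher), where 23.9% of all tested genes passed, 11.3% as higher and 12.6% as lower. In BALB/c 0 of 6 passed by edgeR, DESeq2 or limma-voom, where 0.136% of all genes passed, and 0 of 6 had an unadjusted p under 0.05, where 11.7% of all genes did. Between the strains 2 of 6 were lower in BALB/c wild type (Kitl and Lepr), where 48.5% of all genes passed and 25.6% were lower. Kitl and Angpt1, 2 of 6, were lower in BALB/c mutants, where 36.9% of all genes passed and 18.9% were lower. At an unadjusted p under 0.05 the mutant strains differed in 4 of 6 members, with Vcam1 and Cxcl12 added, beside 46.8% of all genes. For the interaction 0 of 6 passed by edgeR, DESeq2 or limma-voom, where 10% of all genes passed, and 0 of 6 had an unadjusted p under 0.05, where 29.5% did. For the genotype effect averaged over the strains 0 of 6 passed by edgeR, where 7.99% of all genes passed. Angpt1 alone had an unadjusted p under 0.05 there, beside 25.3% of all genes, and passed with DESeq2 (adjusted p = 0.0275). The median absolute log2 difference in C57BL/6 was 0.0765 over the members and 0.214 over all genes. Between the wild type strains it was 0.158 over the members and 0.322 over all genes, and between the mutant strains 0.386 and 0.274.

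Receptors and partners of these signals changed in C57BL/6 mutants in both directions. In C57BL/6, 7 of 12 tested partners passed, 4 lower in mutants (Il7r, Kit, Cxcr4 and Itga4) and 3 higher (Itgb7, Angpt2 and Tek), beside 23.9% of all tested genes. The median over the 12 was 0.15 on the log2 scale beside -0.00395 over all genes. In BALB/c 0 of 12 passed by edgeR or limma-voom, 4 had an unadjusted p under 0.05, beside 11.7% of all genes, and 2 passed with DESeq2 (Cxcr7, now named Ackr3, and Itga4), beside 2.02% of all genes with that tool. Leptin (Lep), the ligand of Lepr, was at 0 counts in 9 of 12 samples and had at most 8 counts in the others, and it was not tested.

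Kit, the receptor of Kitl, fell in C57BL/6 mutants. It was 27.1, 21.5 and 20.3 CPM in C57BL/6 wild type, 14.1, 12.5 and 8.94 CPM in C57BL/6 mutant, 11.04, 11.2 and 11.6 CPM in BALB/c wild type and 15.8, 14.9 and 17.8 CPM in BALB/c mutant samples. The genotype groups did not overlap in either strain, with the mutants below wild type in C57BL/6 and above it in BALB/c. The difference was -0.95 in C57BL/6 (adjusted p = 0.00185, edgeR) and 0.52 in BALB/c (adjusted p = 0.214, edgeR), and the interaction of 1.47 passed (adjusted p = 0.00326, edgeR). In wild type samples Kit was lower in BALB/c than in C57BL/6, by a log2 difference of -1.03 (adjusted p = 0.000307, edgeR), beside the Kitl difference of -0.88. Nasal epithelium sums were also lower in BALB/c wild type, while neutrophil and B cell precursor sums were higher. The part of these markers in the Kit difference was not tested. In mutants the strains stood the other way for Kit (0.45, adjusted p = 0.0381, edgeR), a call lost without BALB/c mutant replicate 16 (0.0703) or 18 (0.125) or C57BL/6 mutant replicate 5 (0.0542) or 6 (0.111) and in a fit to those groups alone (0.0541), while Kitl was lower in BALB/c.

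Cxcr4, the receptor of Cxcl12, also fell in C57BL/6 mutants. It was 19.95, 15.4 and 15.2 CPM in C57BL/6 wild type, 11.6, 10.9 and 10.6 CPM in C57BL/6 mutant, 15.2, 14.3 and 13.4 CPM in BALB/c wild type and 21.7, 16.4 and 19.1 CPM in BALB/c mutant samples. The C57BL/6 mutants lay below every other sample, and the BALB/c mutants overlapped with C57BL/6 wild type. The difference was -0.61 in C57BL/6 (adjusted p = 0.00604, edgeR), 0.42 in BALB/c (adjusted p = 0.214, edgeR) and 1.03 for the interaction (adjusted p = 0.00663, edgeR). Cxcl12 itself had an interaction of 0.27 that did not pass (interval -0.21 to 0.75, adjusted p = 0.446, edgeR). The Kit and Cxcr4 calls in C57BL/6 and in the interaction held in each alternative and each fit without 1 sample.

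Il7r, the receptor of Il7 on lymphoid cells, was 1.82, 1.20 and 0.86 CPM in C57BL/6 wild type, 0.63, 0.34 and 0.48 CPM in C57BL/6 mutant, 2.18, 4.01 and 1.46 CPM in BALB/c wild type and 4.98, 4.00 and 4.08 CPM in BALB/c mutant samples. The C57BL/6 mutants were lowest and lay apart from every other sample. Il7r fell by 1.41 on the log2 scale in C57BL/6 mutants (adjusted p = 0.0277, edgeR), a call lost without wild type replicate 1 (0.118) or mutant replicate 5 (0.0983) or 6 (0.084), with limma-voom (0.0798) and in an edgeR fit to these 2 groups alone (0.0708). In mutants BALB/c exceeded C57BL/6 by 3.15 (adjusted p = 0.000133, edgeR), beside 0.51 for Il7, which did not pass (interval -0.32 to 1.33, adjusted p = 0.319, edgeR).

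Among the integrins that bind Vcam1, Itga4 was 21.5, 19.6 and 16.5 CPM in C57BL/6 wild type, 13.5, 14.2 and 17.4 CPM in C57BL/6 mutant, 15.6, 14.6 and 14.1 CPM in BALB/c wild type and 21.2, 22.3 and 22.5 CPM in BALB/c mutant samples. Mutant replicate 6 overlapped with the C57BL/6 wild type samples, and the BALB/c genotypes lay apart. Itga4 fell by 0.35 on the log2 scale in C57BL/6 mutants (adjusted p = 0.0367, edgeR). That call was lost without wild type replicate 1 (0.172) or 2 (0.0803) or mutant replicate 4 (0.0876) or 5 (0.114), with Y-linked transcripts as a covariate (0.109) and in a fit to these 2 groups alone (0.121). Its interaction of 0.94 passed (adjusted p = 0.00604, edgeR) and held in each alternative. Itgb7, which pairs with Itga4, rose by 0.81 in C57BL/6 mutants (adjusted p = 0.000239, edgeR), while Itgb1 stood at 0.15 (adjusted p = 0.248, edgeR).

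Tek and Angpt2, partners of Angpt1, also rose in C57BL/6 mutants. Tek, its receptor, was 30.1, 30.3 and 29.0 CPM in wild type and 33.8, 38.2 and 39.4 CPM in mutant samples, and Angpt2, a second Tek ligand that can oppose Angpt1, was 21.7, 23.9 and 24.7 CPM and then 30.7, 34.0 and 36.3 CPM. Neither gene overlapped between these groups. Tek rose by 0.32 (adjusted p = 0.0162, edgeR) and Angpt2 by 0.52 (adjusted p = 0.00103, edgeR) on the log2 scale, while Tie1, a receptor related to Tek, stood at 0.23 (adjusted p = 0.0581, edgeR). The Tek call was lost without mutant replicate 5 (0.0596) or 6 (0.0763), with Y-linked transcripts as a covariate (0.0559) and with total-count scaling (log2 0.12, adjusted p = 0.322, edgeR). Angpt2 in BALB/c was 36.4, 39.0 and 36.1 CPM in wild type and 35.7, 34.4 and 32.3 CPM in mutant samples, a difference of -0.12 (adjusted p = 0.581, edgeR), and its interaction of -0.65 passed (adjusted p = 0.00542, edgeR).

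**Figure D3:**
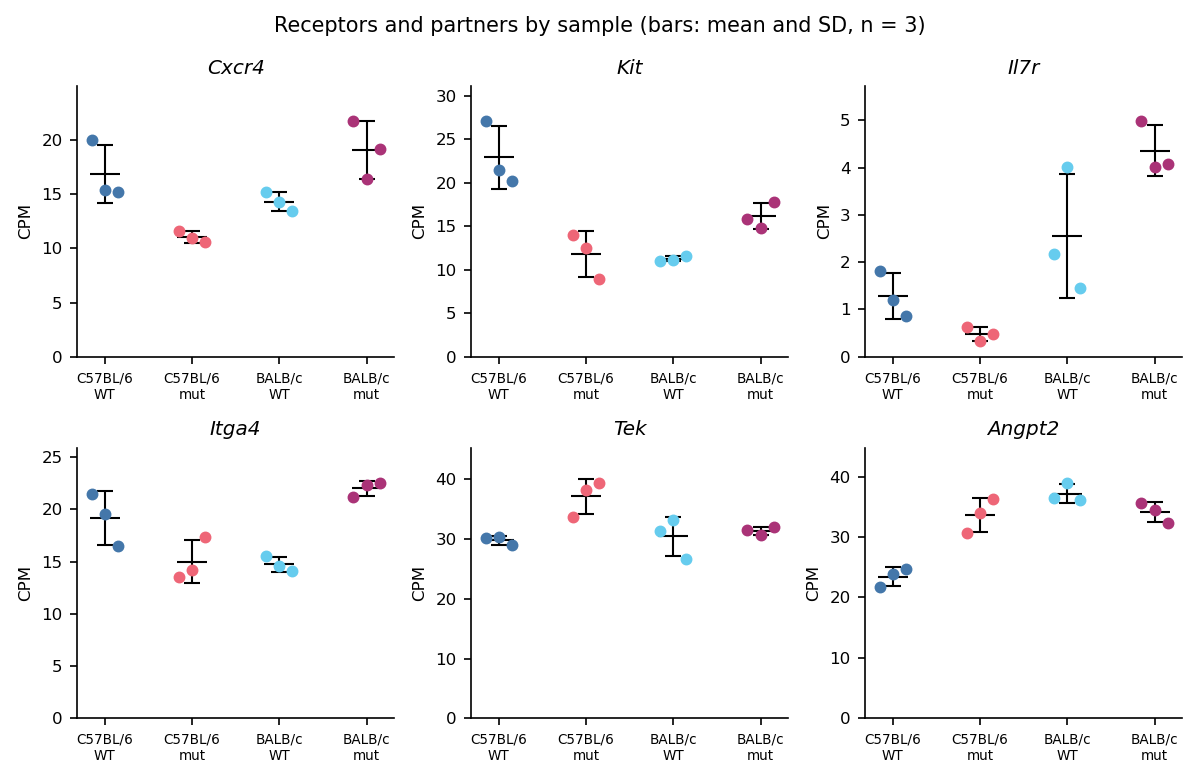
CPM of 6 receptors and partners of the niche factors in the 12 samples (vertical axes from 0), with the mean and SD of each group of 3. Kit, Cxcr4 and Il7r are lower in C57BL/6 mutant than in C57BL/6 wild type samples, whereas Tek and Angpt2 are higher.

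Other niche ligands and stromal genes were examined as lists of 13 and 10 genes. In C57BL/6 mutants 4 of 13 other ligands rose: Spp1 (osteopontin) by 0.94 (adjusted p = 0.000662, edgeR), the macrophage growth factor Csf1 by 0.51 (0.0162), Igf1 by 0.44 (0.0102) and the Notch ligand Jag1 by 0.36 (0.00839) on the log2 scale, beside 11.3% of all genes higher. Ptn (pleiotrophin) fell by 0.43 (adjusted p = 0.00125, edgeR), beside 12.6% of all genes lower. The Csf1 call was lost without mutant replicate 5 (0.0547), with Y-linked transcripts as a covariate (0.0679) and in a fit to these 2 groups alone (0.0741), the Igf1 call in that last fit (0.0665), and the Jag1 call with total-count scaling (log2 0.16, adjusted p = 0.116, edgeR). The median over the 13 was 0.36 beside -0.00395 over all genes. In BALB/c 0 of 13 passed by edgeR or limma-voom, 4 had an unadjusted p under 0.05, beside 11.7% of all genes, and 2 passed with DESeq2 (Bmp4 and Ptn), where 2.02% of all genes passed.

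Of 10 regulators and surface genes of marrow stroma, 3 rose in C57BL/6 mutants and 3 fell, beside 11.3% and 12.6% of all genes. The growth factor receptors Pdgfra (0.59, adjusted p = 0.00126, edgeR) and Pdgfrb (0.32, adjusted p = 0.00309) and the transcription factor Foxc1 (0.37, adjusted p = 0.00173) were higher, and the Pdgfrb call was lost with total-count scaling (log2 0.13, adjusted p = 0.065, edgeR). The transcription factors Ebf3 (-0.99, adjusted p = 0.0121, edgeR) and Ebf1 (-0.45, adjusted p = 0.0242) and the BMP antagonist Grem1 (-0.95, adjusted p = 0.0304) were lower. The 3 lower calls were all lost in a fit to these 2 groups alone and in the fit without mutant replicate 6, where adjusted p was 0.0545 for Ebf3, 0.071 for Ebf1 and 0.0863 for Grem1. The Ebf1 call was also lost without wild type replicate 1 (0.103) or mutant replicate 5 (0.0944), and among the 6 fits without 1 sample the Grem1 call was kept only without wild type replicate 2. Grem1 was also lost with Y-linked transcripts as a covariate (0.101). Foxc1 and Ebf3 are regulators of the reticular cells that make Cxcl12 and Kitl in adult marrow. Nasal epithelium sums also fell between these C57BL/6 groups, from 416 to 828 CPM to 5.53 to 207 CPM. Their part in these calls was not tested. In BALB/c 0 of 10 passed by edgeR, DESeq2 or limma-voom, and 2 had an unadjusted p under 0.05, beside 11.7% of all genes.

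Between the wild type strains Ebf1 had a mean of 33.7 CPM (SD 2.91, n = 3) in C57BL/6 against 13.2 CPM (SD 2.42, n = 3) in BALB/c, a log2 difference of -1.35 (adjusted p = 1.8e-05, edgeR). The means of Ebf3 were 76.1 CPM (SD 24.0, n = 3) against 27.9 CPM (SD 2.65, n = 3), a difference of -1.45 (adjusted p = 0.000559, edgeR), and both were lower in BALB/c, as Kitl was. Foxc1 stood the other way (0.60, adjusted p = 1.9e-05, edgeR). Nasal epithelium markers were lower in BALB/c wild type too (5.19 to 5.71 CPM, against 416 to 828 CPM in C57BL/6 wild type). Their part in the Ebf1 and Ebf3 differences was not tested. Ebf1 is also a B lineage factor, and 8 of 11 B cell precursor markers were higher in BALB/c wild type (edgeR). Of all genes 48.5% passed there, 22.8% as higher.

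**Figure D4:**
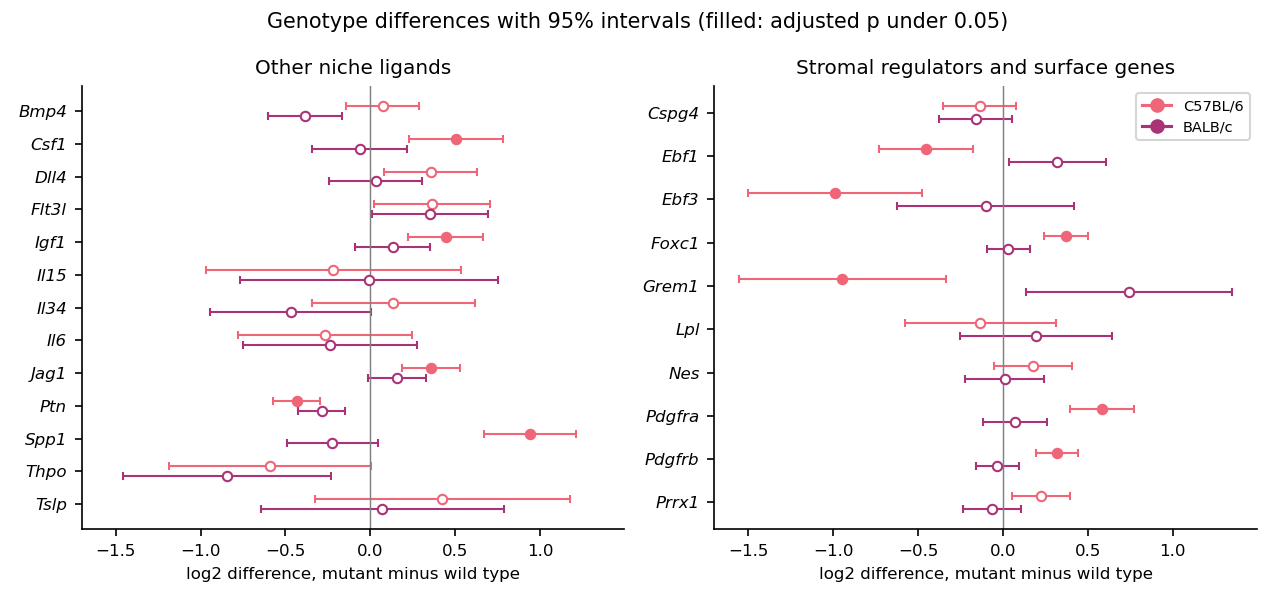
Log2 difference between mutant and wild type with 95% intervals (horizontal axis) for 13 other niche ligands and 10 stromal genes, in C57BL/6 and in BALB/c, filled where the adjusted p was under 0.05. In C57BL/6 5 ligands and 6 stromal genes are filled, and in BALB/c 0 are.

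Markers of the blood cells that these signals serve were set beside the niche factors. The summed level of the 6 niche factors, of which Cxcl12 gave 46.9% to 65.97%, was 382 to 471 CPM in C57BL/6 wild type, 402 to 452 CPM in C57BL/6 mutant, 377 to 432 CPM in BALB/c wild type and 448 to 473 CPM in BALB/c mutant samples. The sum of 10 erythroid markers was 223 to 294, 60.0 to 91.2, 260 to 381 and 497 to 599 CPM in the same order, and that of 11 B cell precursor markers was 17.9 to 34.7, 12.5 to 15.9, 49.8 to 50.5 and 73.1 to 96.9 CPM. On both lists the C57BL/6 mutants lay below all other samples and the BALB/c mutants above all others, while the niche factor sums of the C57BL/6 genotypes overlapped and those of the BALB/c mutants lay above those of BALB/c wild type. Neutrophil sums of the C57BL/6 genotypes overlapped (230 to 406 and 119 to 257 CPM), as did stem and progenitor sums in BALB/c (141 to 148 and 136 to 176 CPM). In BALB/c mutants 2 of 10 erythroid markers were called higher and 0 of 11 B cell precursor markers passed (edgeR), beside 0.136% of all genes.

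In C57BL/6 mutants 9 of 10 erythroid markers fell (Klf1 by 2.51 on the log2 scale), as did 5 of 8 blood stem and progenitor markers (Myb by 1.83), 5 of 11 B cell precursor markers (Rag2 by 2.65, Vpreb1 by 1.45), 6 of 10 neutrophil markers (Elane by 1.97, Mpo by 1.88) and 4 of 6 megakaryocyte markers (Ppbp by 2.56, Gp9 by 1.67), beside 12.6% of all tested genes lower. None of these 45 genes rose by edgeR. Of 7 macrophage markers 2 rose (Cd68 by 0.93, adjusted p = 0.000243, and Csf1r, the receptor of Csf1, by 0.76, adjusted p = 0.000742) and 0 fell by edgeR, beside 11.3% of all genes higher, and 1 fell with total-count scaling, where 25.1% of all genes fell. Their sum was 314 to 393 CPM in C57BL/6 wild type and 525 to 606 CPM in C57BL/6 mutant samples, and Csf1r and Cd68 made up most of it, with means of 203 and 74.2 CPM in wild type and 344 and 141 CPM in mutants. The other 5 did not pass (Mrc1 had means of 30.8 and 28.8 CPM). Of 4 mast cell markers 0 passed by edgeR, DESeq2 or limma-voom, beside 23.9% of all genes by edgeR, with 0 at an unadjusted p under 0.05, and their sums of 6.33 to 24.4 CPM and 9.17 to 21.98 CPM overlapped. In a fit to those 2 groups alone the calls were 8 of 10 erythroid, 1 of 8 stem and progenitor, 0 of 9 B cell precursor, 2 of 10 neutrophil and 3 of 6 megakaryocyte markers, and the share of all genes called lower fell to 4.69%. Without mutant replicate 4, whose nasal and cartilage markers stood apart from the other mutants, the calls were 9, 5, 4, 5 and 4, beside 16.5% of all genes. Neutrophil calls fell to 2 without mutant replicate 6 (5.36% of all genes lower) and to 3 without wild type replicate 1 (5.65%) and rose to 9 without mutant replicate 5 (7.24%). Stem and progenitor calls fell to 3 without any 1 of these 3 samples, and B cell precursor calls ran from 2 without wild type replicate 1 to 6. Kit, Cxcr4, Il7r and Itga4 are carried by blood cells, but nasal epithelium and cartilage sums fell in C57BL/6 mutants as well. Whether the fall of these genes follows any of these markers was not tested.

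**Figure D5:**
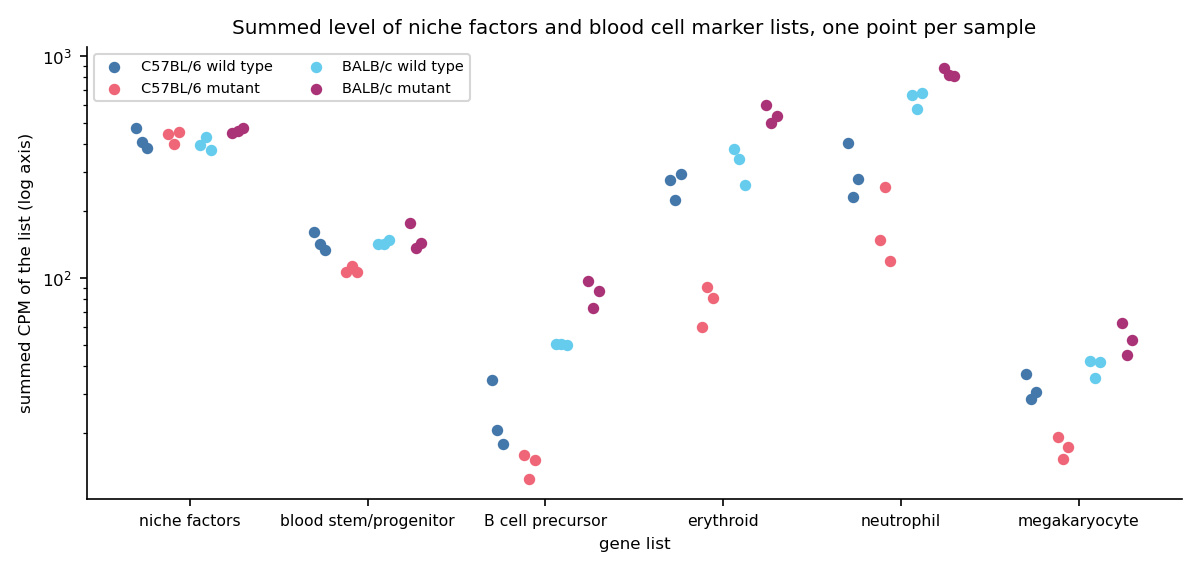
Summed CPM of the 6 niche factors and of 5 blood cell marker lists (log vertical axis), 1 point per sample. The niche factor sums stay between 377 and 473 CPM in all groups, whereas the erythroid sums run from 60.0 CPM in C57BL/6 mutants to 599 CPM in BALB/c mutants.

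The members did not move as 1 block across the samples. Over the 12 samples, Pearson correlations of log2 CPM between pairs of members ran from -0.74 for Cxcl12 with Vcam1 to 0.60 for Kitl with Vcam1. The genes most like each member, among 12668 searched, were Chd7 for Kitl (r = 0.98), Alg9 for Vcam1 (0.97), Cd22 for Cxcl12 (0.97), Palld for Lepr (0.95), Chn2 for Angpt1 (0.95) and Zfp410 for Il7 (0.86). Cd22, a B cell surface receptor, ran from 1.07 to 4.38 CPM, and Chd7, a chromatin remodeller, from 14.05 to 52.0 CPM. These values are descriptions over 12 samples from 4 groups, in which samples of a group share strain and genotype.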

How the data were processed

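The authors deposited raw gene counts for 12 mRNA libraries, with an RPKM value and a length for each gene. Per the submitters' processing notes, the tools were bcl2fastq, TopHat2 2.0.6, HTSeq and DESeq2 and the build was mm10; the strand setting and other versions are not given in the sources used here. The authors' RPKM values were used only to check depth: gene counts made up 75.6% to 80.7% of the implied library total in C57BL/6 and 86.4% to 88.0% in BALB/c. Every deposited count was even, for a reason not established here. Counts, including the low ones of Il7 and Lep, can therefore not be taken as numbers of sequenced fragments. The authors' deposited table of 4 comparisons for 19681 genes holds log2 ratios with their p-values and q-values and is cited where used. Of the value columns, 0 belonged to no sample.

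Counts were analysed with edgeR 4.0.16 in R 4.3.3 (TMM scaling, filterByExpr with a minimum count of 10 and a minimum total of 15, 1 quasi-likelihood fit to all 12 samples, two-sided, Benjamini-Hochberg over 16190 genes, called under 0.05). Strain differences are BALB/c minus C57BL/6, genotype differences mutant minus wild type, and the interaction is the genotype effect in BALB/c minus that in C57BL/6. Intervals are 95%. CPM uses TMM-scaled library sizes. Levels per kilobase use the table's gene length, and log2 CPM a prior count of 2. On simulated data for the C57BL/6 comparison (15932 genes), 65.3% of 2-fold and 22.4% of 1.5-fold changes were called, with 0 false calls. In that simulation all samples shared a mean per gene, and only a small set of genes was changed in the C57BL/6 mutants. In the real comparison 23.9% of genes passed, so these rates need not hold there.

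The niche factors and the 19 other gene lists were chosen with earlier results of these data known. All 156 listed genes were found, 3 of them under older symbols (Ackr3 as Cxcr7). The 6 niche factors were always named. From the partner, ligand and stroma lists, called genes and receptors could be named, and from the cell marker lists the 2 largest called changes. Other markers, such as Fabp4, Abcc9 and Mrc1, were named outside this rule to show what made up a sum or went the other way. Some items that this rule would name are not reported here. Genes most like a member were the highest Pearson correlations of log2 CPM. Alternatives were DESeq2 1.42.0, limma-voom (limma 3.58.1), RLE, upper quartile and total-count scaling, no filter, only the groups compared, a covariate for Y-linked transcripts, and leaving out each sample.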

Additional observations from a re-analysis of the deposited data

Results flagged for a closer look

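The genotype effect differed between the strains by the interaction test (BALB/c minus C57BL/6, adjusted p under 0.05, edgeR) for 7 of 12 receptors and partners, 1 of 13 other ligands and 5 of 10 stromal genes, and for 0 of the 6 niche factors, beside 10% of all tested genes. Among receptors and partners the differences on the log2 scale were 2.17 for Il7r, 1.47 for Kit, 1.03 for Cxcr4, 0.94 for Itga4, -0.69 for Itgb7, -0.65 for Angpt2 and -0.51 for Cxcr7 (now Ackr3), a scavenging receptor of Cxcl12. Those of Kit, Cxcr4, Itga4, Itgb7, Angpt2 and Cxcr7 passed in 12 of 12 fits without 1 sample, and that of Il7r in 4 of 12, with its highest adjusted p at 0.0766 without C57BL/6 mutant replicate 6.

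Among other niche genes the differences were -1.16 for Spp1, 1.69 for Grem1, 0.77 for Ebf1, -0.51 for Pdgfra, -0.35 for Pdgfrb and -0.34 for Foxc1. Spp1 passed in 12 of 12 fits without 1 sample, and the others in 7, 5, 5, 8 and 6 of 12 in that order. The highest adjusted p was 0.0581 for Grem1, 0.0729 for Pdgfra and 0.0679 for Pdgfrb without C57BL/6 mutant replicate 6, 0.0602 for Ebf1 without BALB/c wild type replicate 13, and 0.074 for Foxc1 without BALB/c mutant replicate 16 (edgeR). With total-count scaling Foxc1 (-0.11, adjusted p = 0.365, edgeR), Pdgfra (-0.28, 0.0846) and Pdgfrb (-0.13, 0.22) no longer passed. With Y-linked transcripts as a covariate Foxc1 (0.0636), Grem1 (0.0618), Pdgfra (0.0509) and Il7r (0.0514) no longer passed. The interaction and the C57BL/6 comparison share samples.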

How the results depend on the processing

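No paired analysis was possible because the groups share no replicate number in the labels. No niche factor difference that passed changed direction: of 564 single-gene values under alternatives, 531 kept their side of the threshold, 15 moved past it and 18 fell short. The count of niche factors called in C57BL/6 mutants (1 in the report) was 0 with the Y-linked covariate and 0 to 1 when 1 sample was left out, and with total-count scaling the 1 called was Lepr (-0.23, adjusted p = 0.0216, edgeR), not Angpt1. Between wild type strains (2) it was 1 with limma-voom, 1 without the filter, 1 with only those groups, 3 with total counts and 1 to 3 when 1 sample was left out. Between mutant strains (2) it was 4 with DESeq2, 4 with only those groups, 3 with limma-voom, 3 with RLE, 1 with total counts and 1 to 2 when 1 sample was left out. For the interaction (0) it was 1 with total counts (Lepr), and for the averaged genotype effect (0) it was 1 with DESeq2 and 0 to 1 when 1 sample was left out, 1 (Angpt1) without C57BL/6 mutant replicate 4 or BALB/c wild type replicate 14. Total-count scaling moved the median of all genes to -0.20 in C57BL/6, -0.12 between wild types, 0.11 between mutants and 0.24 for the interaction, and the cause of each changed call was not tested. The list counts without C57BL/6 mutant replicate 4 were added after seeing the data. Il7 had 14 to 48 counts per sample.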

Other observations

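Thpo (thrombopoietin), a growth factor for megakaryocytes and blood stem cells, was scarce and lay lower in the mutants of both strains. Its mean was 1.86 CPM (SD 0.380, n = 3) against 1.23 CPM (SD 0.250, n = 3) in C57BL/6 and 1.41 CPM (SD 0.240, n = 3) against 0.780 CPM (SD 0.160, n = 3) in BALB/c, and the genotype ranges did not overlap in either strain. Neither strain passed alone (-0.59, adjusted p = 0.129 in C57BL/6 and -0.84, adjusted p = 0.267 in BALB/c, edgeR). The effect averaged over the strains passed (-0.72, adjusted p = 0.0443, edgeR), but in only 1 of 12 fits that left out 1 sample (the one without BALB/c wild type replicate 14), and adjusted p reached 0.109 without C57BL/6 wild type replicate 1. It was also lost with Y-linked transcripts as a covariate (0.091) and without the low count filter (0.0583).

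Tslp, a cytokine related in action to Il7, was 1.19 higher on the log2 scale in BALB/c than in C57BL/6 wild type (adjusted p = 0.0134, edgeR), at 1.09 against 0.478 CPM, a call lost without C57BL/6 wild type replicate 3 (0.0514). Il34, a second ligand of the Csf1 receptor, was 0.74 higher there (adjusted p = 0.0159, edgeR), lost without BALB/c wild type replicate 13 (0.0799) or C57BL/6 wild type replicate 1 (0.0503) or 2 (0.0582) or with Y-linked transcripts as a covariate (0.0719).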
